A study of Homo sapiens with 8 samples.

Results

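The genes described are the replication-dependent histone genes and the linker histone genes H1-1 to H1-5, measured in BEAS-2B cells. They were chosen by name: the symbol in GENCODE 44 had to be H1-1 to H1-5 or begin with H2AC, H2BC, H3C or H4C and a digit, and the estimated count had to reach 5 in at least 2 libraries. Of 82 symbols that match, 78 had an identifier in the files (H3C2, H3C3, H2AC18 and H2AC19 were not analysed here), and 66 of these passed the count threshold, among 58735 genes in the files and 21298 that passed the same threshold. The 66 members are 5 H1, 16 H2A, 20 H2B, 11 H3 and 14 H4 genes, 62 of them protein-coding, with 51 on chromosome 6, 13 on chromosome 1, and H4C16 and H2BC12L on chromosomes 12 and 21. All but 4 members reached 5 counts in all 8 libraries. H4C12 was just inside the threshold, with 5 counts in 2 libraries, and H3C9P and H4C10P were just outside it, with 5 counts in 1.

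The BEAS-2B line, long established, derives from human bronchial epithelium. Cultures at the air–liquid interface received clean air (CA) or 1 ppm formaldehyde (FA) for 2 h and recovered for 6 h. RNA was depleted of ribosomal RNA without selection of poly(A) tails, and each RNA pool was split into an input fraction (CA_IN, FA_IN) and a fraction immunoprecipitated with an antibody against 8-oxo-7,8-dihydroguanosine, 8-oxoG (CA_IP, FA_IP). The 4 groups hold 2 libraries each, numbered 1 and 3 from the 3 exposures, so an input and a pull-down library of the same treatment and number come from 1 pool of RNA. The labels name the antibody clone in 2 ways. No gene was altered in any group, and all groups share the line, the inserts and the recovery. Clean air and formaldehyde were given in separate chambers, so chamber and treatment cannot be told apart. The comparison of pull-down with input asks which RNAs the antibody retained, and that of formaldehyde with clean air asks whether the exposure moved RNA levels in either fraction.

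Replication-dependent histone genes supply the histones that package new DNA in S phase. Their mRNAs lack introns and a poly(A) tail and end instead in a short stem-loop that is bound by SLBP, the stem-loop binding protein, and processed with the U7 small nuclear ribonucleoprotein. H2A, H2B, H3 and H4 form the nucleosome core, and H1 binds the linker DNA between nucleosomes. Guanine is the base that 8-oxoG derives from.

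Libraries held 26.15 to 45.14 M estimated counts in input and 16.88 to 23.66 M in pull-down. Correlations of log2 levels were 0.981 to 0.986 within the 4 replicate pairs and 0.954 to 0.995 between the other 24 pairs of libraries. All 9 epithelial markers listed were detected, with a summed level of 4780 to 8800 CPM (counts scaled to a common library size), and all 5 mesenchymal markers, at 1720 to 2390. Markers of ciliated or secretory airway cells summed to at most 0.355 CPM, those of endothelium to 0.86, and erythroid HBB was at 0 in all libraries. The immune list summed to 4.38 to 8.44 CPM, nearly all of it CD68, while PTPRC did not exceed 0.0521 CPM and CD3E 0.0423. Fewer cells in S phase and less histone RNA in each cell cannot be told apart in such bulk RNA.

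Of the 62 coding members, 58 (93.5%) had a histone stem-loop within 150 bases after the stop codon, against 44 of 19652 other coding genes (0.22%). A stem-loop was 16 bases with a 6-base stem starting with GG and a 4-base loop starting with TT. At most 1 pair of the stem could be mismatched. The loops lay 23 to 63 bases after the stop codon and took 7 forms. The commonest, in 34 members and in no H4 member, is that of H1-5 and H3C7. All 13 H4 loops have a stem of the GGCCC form. The examples show 1 RNA end from each class, and the form of H2AC11 was found in 1 member only. They are given 5′ to 3′ from GRCh38 with the stem-loop in capitals.
H1-5 (chr6:27866792-27866817, minus strand): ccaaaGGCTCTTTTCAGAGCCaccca
H2AC11 (chr6:27133510-27133535, plus strand): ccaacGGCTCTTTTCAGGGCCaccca
H2BC4 (chr6:26123467-26123492, minus strand): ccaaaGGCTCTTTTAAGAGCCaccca
H3C7 (chr6:26250140-26250165, minus strand): ccaaaGGCTCTTTTCAGAGCCaccaa
H4C3 (chr6:26104312-26104337, plus strand): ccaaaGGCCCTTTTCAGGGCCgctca

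The 14 H4 genes encode 1 identical protein of 103 residues, while their coding sequences are only 79.0% to 100% identical. They therefore allow the RNA to be compared with the protein held constant. The first 90 coding bases of 4 H4 genes are shown with each guanine in capitals: H4C3 and H4C4, which were among the members that fell most in the pull-down, and H4C1 and H4C8, which did not pass the test. H4C1 was singled out after its values were seen.
H4C3 (chr6:26103948-26104037, plus strand): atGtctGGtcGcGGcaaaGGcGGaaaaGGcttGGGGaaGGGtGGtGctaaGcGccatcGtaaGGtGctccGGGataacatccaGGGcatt
H4C4 (chr6:26188987-26189076, minus strand): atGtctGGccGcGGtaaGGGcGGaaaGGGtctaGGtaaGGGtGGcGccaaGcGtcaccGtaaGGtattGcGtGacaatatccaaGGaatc
H4C1 (chr6:26021679-26021768, plus strand): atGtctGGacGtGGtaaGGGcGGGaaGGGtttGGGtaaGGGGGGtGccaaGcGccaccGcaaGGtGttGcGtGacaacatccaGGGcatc
H4C8 (chr6:26285410-26285499, minus strand): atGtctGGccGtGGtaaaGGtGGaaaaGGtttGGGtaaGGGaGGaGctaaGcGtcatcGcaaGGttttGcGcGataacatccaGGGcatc

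In input RNA the 66 genes together took 0.350% ± 0.055 of all counts in clean air and 0.356% ± 0.11 in formaldehyde (SD, n = 2 each). In pull-down RNA they took 0.188% ± 0.012 and 0.201% ± 0.061, which is 0.537 and 0.565 times the input share. The CPM scale with TMM scaling is used from here on unless another is named. On it the summed level of the members was 4031.33 and 3263.69 in CA_IN, 4707.89 and 2941.23 in FA_IN, 1835.11 and 1706.63 in CA_IP with 2275.48 and 1531.35 in FA_IP (replicates 1 and 3). All 4 pull-down libraries lay below all 4 input libraries.

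The classes differed in the size of this drop. As a share of all counts, without TMM scaling, H4 in pull-down was 0.466 (clean air) and 0.508 (formaldehyde) times its input share. The ratios were 0.475 and 0.506 for H2B, 0.530 and 0.573 for H3, and 0.544 and 0.566 for H2A. H1 stood apart, at 0.918 and 0.885. With TMM scaling, the log2 ratio of pull-down to input within the 4 RNA pools ran from -1.373 to -1.113 for H4. For H1 it ran from -0.447 to -0.207, and these ranges do not meet.

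**Figure D1:**
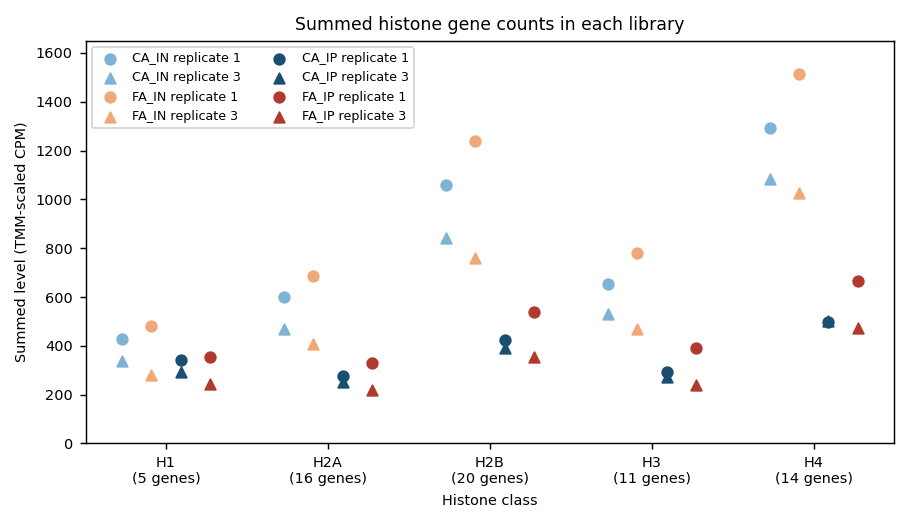
Summed level of each histone class (TMM-scaled CPM, linear axis from 0) in the 8 libraries, with circles for replicate 1 and triangles for replicate 3. For H2A, H2B, H3 and H4 every pull-down point lies below every input point, while for H1 the ranges overlap.

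Gene by gene, edgeR's quasi-likelihood test with Benjamini-Hochberg adjustment over all 21298 genes called 18 of 66 members lower in CA_IP than in CA_IN, where 1.48% of all genes were called lower. It called 0 higher, against 0.103% of all genes, with 0 higher at an unadjusted p under 0.05. In formaldehyde 15 of 66 were lower, against 1.27% of all genes, and 0 were higher, against 0.0282%, again with 0 higher at an unadjusted p under 0.05. All 15 were among the 18, and H2AC6, H2AC11 and H3C1 were called in clean air only, a difference between the treatments that did not pass its own test. The median log2 fold change of the members was -1.07 in clean air and -1.02 in formaldehyde, beside 0.011 and 0.00012 for all genes. By class the calls were 0 of 5 H1 genes in both treatments, 3 and 1 of 16 H2A, 6 and 6 of 20 H2B, 2 and 1 of 11 H3, and 7 and 7 of 14 H4.

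These counts rest on how far replicate libraries differ. For H4C11 the standard error of the change was 0.27 without a block and 0.07 with the RNA pool as a block. With the RNA pool as a block, 54 members were lower in clean air, where 4.67% of all genes were, 53 in formaldehyde, where 3.7% were, and 52 in both. The classes then gave 2 of 5 H1, 13 of 16 H2A, 17 of 20 H2B, 9 of 11 H3 and 11 of 14 H4 genes lower in both. H1-5 was the 1 member called higher, in clean air, where 9.25% of all genes were, and 0 were higher in formaldehyde, where 4.36% were. Counting directions alone, 57 of 66 members (86.4%) were lower in pull-down within all 4 pools, against 16.1% of all genes. Both CA_IP libraries lay below both CA_IN libraries for 57 members, against 18.2% of all genes, and both FA_IP libraries below both FA_IN libraries for 48, against 18.9%. The count without a block depended on single libraries. Without replicate 1 or replicate 3 of CA_IP it was 4 in clean air, and without replicate 1 of CA_IN 6. In formaldehyde it was 2 without replicate 1 of FA_IN, 25 without replicate 3 of FA_IN, 3 without replicate 3 of FA_IP, and 9 without either CA_IP library.

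**Figure D2:**
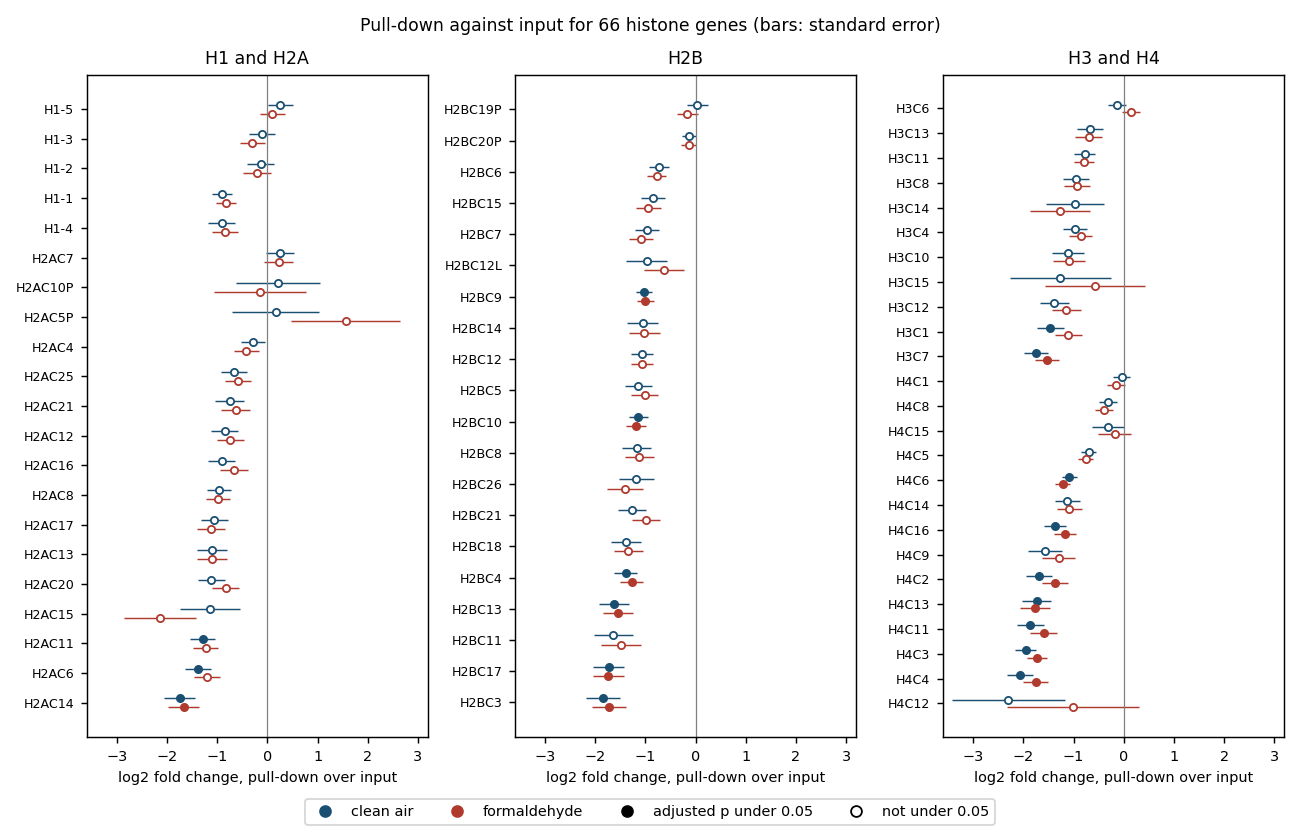
Log2 fold change of pull-down over input for each of the 66 members, ordered within a class, with bars of 1 standard error from edgeR and filled points where the adjusted p was under 0.05. The 18 filled clean air points and 15 filled formaldehyde points all lie left of 0, with H4C3 and H4C4 at about -2 in clean air and H1-5, H1-3, H1-2 and H4C1 near 0.

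By the lengths of the transcripts the authors counted, the H4 genes held the members with the highest levels per length in CA_IN. They also held the strongest drops among the called members. H4C3 (ENSG00000197061, chr6:26103933-26104337, GRCh38) measured 236 and 218 CPM in CA_IN, 304 and 227 in FA_IN, 56.1 and 61.0 in CA_IP with 97.7 and 62.8 in FA_IP. The pull-down and input values of H4C3 were far apart in both treatments. Its log2 fold change was -1.96 ± 0.20 (SE, n = 2 against 2, as for every fold change here) with an edgeR adjusted p of 0.000872 in clean air, and -1.73 ± 0.20 with 0.00221 in formaldehyde, 3.88 and 3.31 times lower. H4C4 (ENSG00000277157, chr6:26188710-26189112) fell from 52.0 and 49.0 CPM in CA_IN to 12.03 and 12.12 in CA_IP, and from 71.1 and 45.6 in FA_IN to 21.6 and 13.1 in FA_IP. At 4.18 and 3.38 times lower, it showed the largest drop of the 18 called members in clean air (log2 -2.06 ± 0.26, adjusted p 0.00258; formaldehyde -1.76 ± 0.25, 0.0075).

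The other called H4 genes are H4C11, H4C13, H4C2, H4C16 and H4C6, whose log2 fold changes in clean air lay between -1.86 and -1.09. H4C11 measured 245 and 200 CPM in CA_IN, 267 and 174 in FA_IN, 66.1 and 56.1 in CA_IP with 93.7 and 52.9 in FA_IP, and 91.4% of its 75-base windows also occur in H4C12, which held almost no counts. H4C6 was less dispersed, at 29.9 and 32.7 CPM in CA_IN, 39.9 and 35.3 in FA_IN, 12.8 and 16.6 in CA_IP with 15.3 and 16.9 in FA_IP. It fell by 1.09 ± 0.15 in clean air (adjusted p 0.00547) and by 1.22 ± 0.15 in formaldehyde (0.00341) on the log2 scale. H4C16, the solitary gene on chromosome 12, fell alongside the clustered genes (log2 -1.37, adjusted p 0.0144, and -1.17, 0.0422).

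H4C1 did not follow, although it encodes the same protein. H4C1 (ENSG00000278637, chr6:26021649-26022050) measured 15.0 and 14.3 CPM in CA_IN, 18.9 and 14.3 in FA_IN, 12.5 and 15.9 in CA_IP with 15.6 and 14.1 in FA_IP, so that the fractions overlapped. Its log2 fold change was -0.04 ± 0.18 in clean air and -0.16 ± 0.18 in formaldehyde (adjusted p 0.968 and 0.951). H4C8 (ENSG00000158406, chr6:26277609-26285638) had 131 and 107 CPM in CA_IN, 167 and 118 in FA_IN, 94.8 and 96.5 in CA_IP with 121 and 96.0 in FA_IP. Its change was -0.32 ± 0.18 (0.587) and -0.39 ± 0.18 (0.604), which did not pass the test without a block and did with the pool block (adjusted p 0.00767 and 0.00252). H4C5 was lower than both, at -0.70 ± 0.15 (0.0671; 3.84e-06 with the pool block) and -0.76 ± 0.15 (0.0539; 1.63e-06).

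Coding sequences of H4C1 hold 110 guanines of 309 bases, H4C3 96, H4C4 93 and H4C8 98. Over the 10 H4 genes with at least 90% unique windows, guanine share and log2 fold change had a Pearson r of 0.52 in clean air and 0.59 in formaldehyde (Spearman 0.66 and 0.67), with the 2 comparisons made in different libraries of the same cells. Without H4C1 the Pearson r of the other 9 was 0.25 and 0.36, so the relation rests in part on this gene, which was singled out for its values. Over all 14 H4 genes it was 0.41 and 0.55. Over all 62 coding members the Pearson r was 0.13 and 0.20. These are descriptions over genes that share their libraries and much of their sequence. H4C8, with few guanines and a small change, and H4C16, with many guanines and a clear drop, lie away from this relation. So does H4C9, with 34.3% guanine and log2 changes of -1.57 in clean air and -1.30 in formaldehyde. It passed the test only with the pool block.

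**Figure D3:**
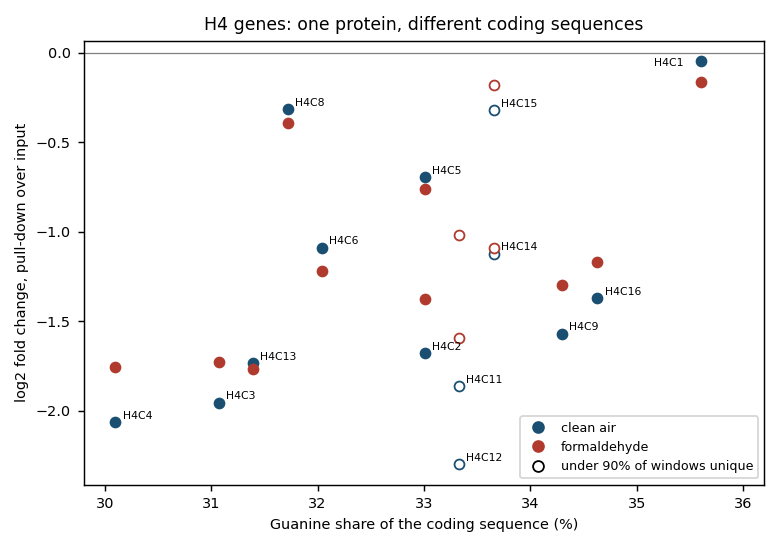
Log2 fold change of pull-down over input against the guanine share of the coding sequence (%) for the 14 H4 genes, in clean air (blue) and formaldehyde (red), with open points where under 90% of 75-base windows are unique. H4C4, lowest in guanine, lies near -2 in clean air and H4C1, highest, near 0, with H4C8 away from both.

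Of the H3 genes, H3C7 gave the clearest drop. H3C7 (ENSG00000277775, chr6:26250142-26250635) measured 33.38 and 33.99 CPM in CA_IN, 45.9 and 34.1 in FA_IN, 9.996 and 10.005 in CA_IP with 17.7 and 10.1 in FA_IP (log2 -1.75 ± 0.24, adjusted p 0.00528, and -1.53 ± 0.24, 0.0129). Without a block H3C1 was called in clean air (-1.46 ± 0.26, 0.0253) and not in formaldehyde (-1.10 ± 0.27, 0.139), and with the pool block it was called in formaldehyde too (1.91e-06). H3C10 and H3C8, with higher levels, were at -1.11 ± 0.32 and -0.95 ± 0.26 in clean air without passing the test, and did pass it with the pool block. H3C6 stayed at 5.0 to 6.2 CPM in all 8 libraries. The pair H3C14 and H3C15 is nearly identical, with 99.1% of the windows of H3C14 also in H3C15, and the estimated counts were divided unevenly: H3C15 had 0.914 CPM in replicate 3 of CA_IP and 77.9 in replicate 1. The sum of both was 346.173 and 276.385 CPM in CA_IN, 406.958 and 245.274 in FA_IN, 155.780 and 144.304 in CA_IP with 211.602 and 125.578 in FA_IP, so values of either gene alone are uncertain.

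Most H2B genes moved together, with 19 of 20 below 0 in clean air and all 20 in formaldehyde. The pseudogenes H2BC19P and H2BC20P changed little. With the pool block they were at 0.04 and -0.14 in clean air and at -0.17 and -0.15 in formaldehyde, without passing the test. Their counts lay almost all in long noncoding transcripts, and 0.0% of the windows of these are unique. The strongest fall among them in clean air was that of H2BC3, from 35.7 and 25.7 CPM in CA_IN to 8.85 and 8.27 in CA_IP and from 38.7 and 21.3 in FA_IN to 11.8 and 6.46 in FA_IP (log2 -1.84 ± 0.34, adjusted p 0.0269, and -1.72 ± 0.34, 0.0463). H2BC4, the most abundant of the called H2B genes, had 153 and 126 CPM in CA_IN, 187 and 121 in FA_IN, 52.8 and 53.4 in CA_IP with 77.2 and 50.8 in FA_IP (-1.40 ± 0.23, 0.0155, and -1.27 ± 0.23, 0.0311). H2BC9 showed the smallest drop of the called H2B genes, -1.03 ± 0.17 (0.0134) and -1.002 ± 0.17 (0.0185). H2BC17 fell by 1.73 ± 0.31 (0.0239) in clean air and by 1.74 ± 0.31 (0.0292) in formaldehyde on the log2 scale, there as far as H2BC3. H2BC13 and H2BC10 lay between H2BC3 and H2BC9 in both treatments. H2BC5, at 158 and 123 CPM in CA_IN and 69.2 and 58.4 in CA_IP, was at -1.14 ± 0.26 without passing the test (0.0823), and passed it with the pool block (1.35e-10). H2BC8, H2BC12 and H2BC18, also among the 24 members of highest mean CPM, were not called without a block. With the pool block their log2 changes were -1.168, -1.069 and -1.385 in clean air. In formaldehyde they were -1.105, -1.048 and -1.326, and all passed in both treatments. The annotated span of H2BC4 covers H4C3 on the opposite strand, and the RSEM command in the study's methods names no strand option, so reads from where the 2 genes overlap cannot be told apart by strand.

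Among the H2A genes, H2AC14, H2AC6 and H2AC11 were called in clean air and H2AC14 in formaldehyde too. H2AC6 measured 68.9 and 52.7 CPM in CA_IN, 76.0 and 47.9 in FA_IN, 24.3 and 22.2 in CA_IP with 33.3 and 20.6 in FA_IP (log2 -1.39 ± 0.27, adjusted p 0.0357, and -1.20 ± 0.26, 0.0857). With the pool block its adjusted p in formaldehyde was 8.92e-10. Between treatments it differed by less than its standard error (0.02 ± 0.26 in input and 0.21 ± 0.27 in pull-down). H2AC14, at -1.75 ± 0.30 and -1.67 ± 0.30, shares 64.2% of its windows with H2AC13, so part of its count is an estimate. H2AC8, H2AC12 and H2AC13, also among the 24 members of highest mean CPM, were not called without a block. With the pool block their log2 changes were -0.956, -0.845 and -1.105 in clean air. In formaldehyde they were -0.965, -0.701 and -1.086, and all passed in both treatments. H2AC7 did not fall, at 12.6 and 10.2 CPM in CA_IN and 13.257 and 13.997 in CA_IP, but only 17.0% of its windows are unique. Over the 46 members with at least 90% unique windows the median change was -1.1 in clean air and -1.06 in formaldehyde, and over the other 20 it was -1.02 and -0.846.

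The H1 genes split. H1-4 measured 146 and 115 CPM in CA_IN, 169 and 94.9 in FA_IN, 71.96 and 66.67 in CA_IP with 88.2 and 58.5 in FA_IP (-0.91 ± 0.27, adjusted p 0.1802, and -0.84 ± 0.27, 0.311), and passed with the pool block (2.1e-08 and 1.36e-07). H1-1 was at -0.90 ± 0.20 (0.0736) and -0.82 ± 0.20 (0.144), and also passed with the pool block (1.28e-06 and 6.92e-06). H1-5 went the other way in 3 of 4 pools: it had 101 and 83.2 CPM in CA_IN, 116 and 66.2 in FA_IN, 114 and 107 in CA_IP with 115 and 78.5 in FA_IP. H1-5 changed by 0.26 ± 0.25 in clean air (adjusted p 0.799; 0.0203 with the pool block) and by 0.09 ± 0.25 in formaldehyde (0.992; 0.44 with the block). H1-2, at 124 and 89.9 CPM in CA_IN and 112 and 83.1 in CA_IP, was at -0.13 ± 0.27, and its sign turned to 0.014 when libraries were scaled by size alone.

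**Figure D4:**
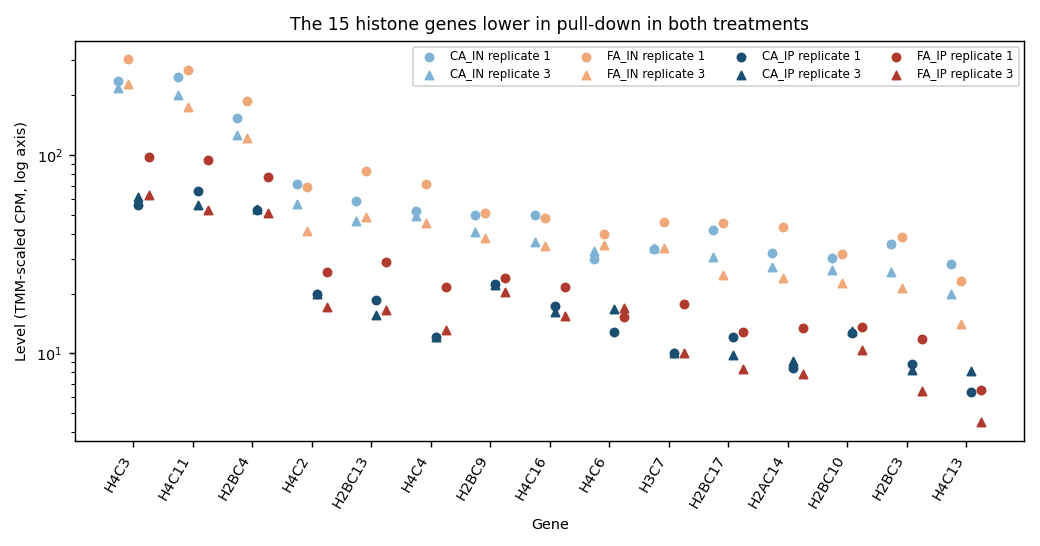
Level (TMM-scaled CPM, log axis) of the 15 members called lower in pull-down in both treatments, in each of the 8 libraries, with input in light and pull-down in dark colours. In each of the 15 genes every input point lies above every pull-down point of its treatment.

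Many histone transcripts are short, so the change in pull-down was also set out by transcript length. Whether length had a part in the drop was not tested. Other genes whose leading transcript was under 300 bases had a median log2 change of -2.26 in clean air and -1.96 in formaldehyde (n = 221). No member was that short. From 300 to under 500 bases the 35 members had medians of -1.12 and -1.07, beside -0.187 and -0.256 for 715 other genes. The 12 members of 500 to under 1000 bases were at -0.907 and -0.832, beside -0.093 and -0.113 for 3043 others. The 11 members of 1000 to under 2000 bases were at -1.11 and -1.09, beside 0.087 and 0.069, and the 8 of 2000 bases or more at -0.991 and -0.961, beside 0.012 and 0.00076. By median, members lay below the other genes in each of these 4 length classes. The lengths are those of the transcripts the authors counted. For H2BC7, H2BC8, H3C14, H3C15, H4C5, H4C9, H2AC11, H3C8 and H2BC9 they exceed the span of the gene in the coordinates used here. H2AC11, for example, has 2250 bases for chr6:27133043-27133535. The classes from 1000 bases up therefore include short histone genes, and there members were not compared with other genes of like length.

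With the effective lengths of each library as offsets, 25 members were lower in clean air, where 1.73% of all genes were, and 17 in formaldehyde, where 1.35% were. Together with the pool block, 49 were lower in each treatment, where 3.43% and 2.71% were. On the TPM scale, levels per length, the median of all genes itself moved by 0.801 in clean air and 0.753 in formaldehyde. Transcripts under 300 bases held 47.4% to 49.4% of TPM in input and 38.8% to 40.7% in pull-down, and their part in that shift was not tested. Relative to that shift the members were lower by a median of 0.987 and 0.885, and 60 and 61 of 66 lay below the median of all genes. Scaled by library size alone, the median of all genes moved by 0.159 and 0.168. In CA_IN the highest TPM among the members was that of H4C11 (500.59), followed by H4C3 (369.52), H4C14 (244.41) and H4C8 (214.14). The 4 coding members without a stem-loop, H2BC10, H2BC12L, H3C6 and H4C13, had median changes of -1.06 and -0.912, and the 58 with one -1.1 and -1.05.

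Members varied together between the replicate cultures. The median member was higher in replicate 1 than in replicate 3 by 0.29 on the log2 scale in CA_IN, 0.681 in FA_IN, 0.095 in CA_IP and 0.589 in FA_IP, where the median of all genes differed by 0.015, 0.019, 0.009 and -0.002. Replicate 1 exceeded replicate 3 in 61, 61, 42 and 60 of the 66 members. It did so in all 4 groups for 38 members (57.6%), against 19.0% of all genes. The summed level of 24 S phase genes differed between replicates by only 0.013, -0.026, -0.009 and -0.041 on the log2 scale. Their part in the histone difference was not tested.

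Between formaldehyde and clean air no member passed the test in either fraction, with or without the replicate number as a block. In input edgeR called 0 of 66 members, against 0.0047% of all genes, with 0 at an unadjusted p under 0.05, and DESeq2 on 8 libraries called 0 with 2. Of the 21298 genes, 719 had such a p in edgeR and 357 in DESeq2. In pull-down edgeR called 0 of 66, against 0.0% of all genes, with 3 at an unadjusted p under 0.05, and DESeq2 called 0 with 5. There 1020 of the 21298 genes had such a p in edgeR and 544 in DESeq2. The 3 members in edgeR were H3C4 (log2 0.57 ± 0.24), H2AC7 (-0.63 ± 0.28) and H4C3 (0.45 ± 0.20), each at an adjusted p of 0.918. With the replicate number as a block, edgeR again called 0 of 66 in input, where 1.03% of all genes were called, with 12 at an unadjusted p under 0.05 (7 of them higher) and a smallest adjusted p of 0.0711. In pull-down it called 0, where 1.53% were, with 11 at an unadjusted p under 0.05 (6 higher) and a smallest adjusted p of 0.0882. With this block 2768 of the 21298 genes had an unadjusted p under 0.05 in input and 2958 in pull-down. The member medians without a block were 0.02 in input and 0.09 in pull-down. Both FA_IN libraries lay above both CA_IN libraries for 3 members, against 17.7% of all genes, and below for 5, against 15.8%. Both FA_IP libraries lay above both CA_IP libraries for 8, against 15.7%, and below for 3, against 17.3%.

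The direction between treatments turned with the replicate number. In input the median member was 0.201 higher in formaldehyde on the log2 scale in replicate 1 and lower by 0.169 in replicate 3, and in pull-down 0.312 higher and lower by 0.146. Formaldehyde exceeded clean air in both numbers for 13 members in input, against 32.2% of all genes, and was below in both for 12, against 28.0%. It was above in replicate 1 and below in replicate 3 for 38 members in input, against 19.0% of all genes, and for 46 in pull-down, against 18.6%. H2BC4 was such a member in both fractions, with 187 CPM in FA_IN against 153 in CA_IN in replicate 1 and 121 against 126 in replicate 3. By the study's methods clean air was run in parallel with formaldehyde, but the labels do not say that an equal number marks 1 exposure. Over genes with a mean above 5 CPM, the deviations of the replicate numbers correlated at 0.567 between CA_IN and FA_IN and at 0.588 between CA_IP and FA_IP.

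**Figure D5:**
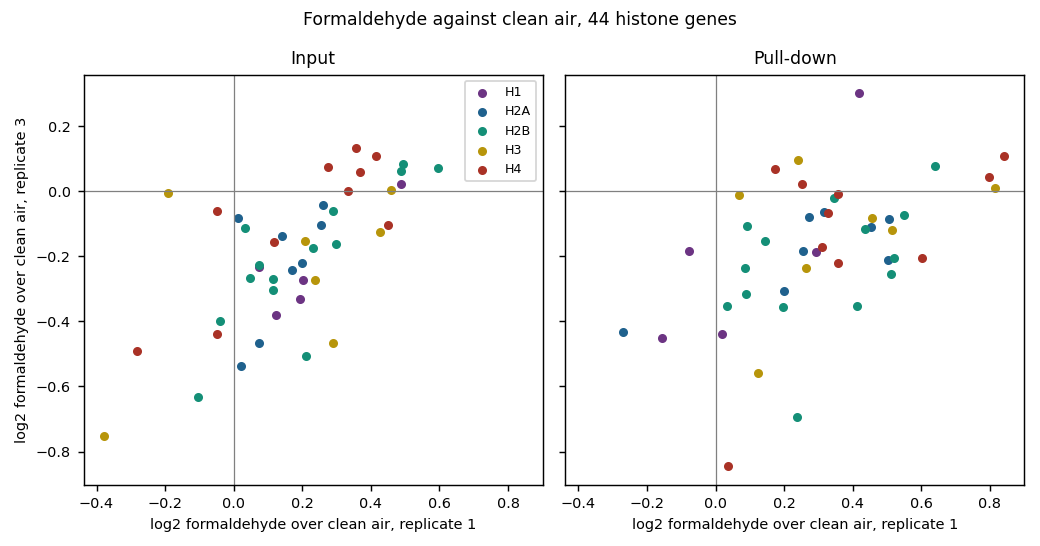
Log2 ratio of formaldehyde to clean air in replicate 3 against replicate 1 for the 44 members with at least 90% unique windows and a mean of at least 5 CPM, in input (left) and pull-down (right), coloured by class. Most points lie right of 0 and below 0, so that the replicates of most members changed in opposite directions.

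The difference between the treatments in the change from input to pull-down was also tested. As an interaction in edgeR, 0 of 66 members passed, against 0.0% of all genes, with 0 at an unadjusted p under 0.05, and DESeq2 on 8 libraries also gave 0 and 0. With the pool block 0 members passed, where 17 of 21298 genes were called higher and 5 lower. At an unadjusted p under 0.05 there were 5 members, all 5 higher, against 687 of the 21298 genes, 298 of them higher. Over the 66 members the log2 fold changes in the 2 treatments, which share no library, had a Pearson r of 0.86 and a Spearman rho of 0.90, as a description over genes that share their sequence and processing.

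Among the 84 tested transcripts of the members, 1 was called by edgeR in clean air, where 0.242% of all transcripts were, and it was the single transcript of H4C3 (log2 -1.98 ± 0.23, adjusted p 0.0454). In formaldehyde 0 were called, where 0.144% of all were, with 48 at an unadjusted p under 0.05 (H4C3 -1.74 ± 0.22, adjusted p 0.085). Between the treatments 0 were called in input, where 0.0% of all were, with 0 at an unadjusted p under 0.05, and 0 in pull-down, also where 0.0% were, with 0. These shares of all transcripts, and those that follow, count calls in either direction. DESeq2 on 4 libraries without a filter called 46 of 93 member transcripts lower in CA_IP than in CA_IN, where 0.9% of all were called, and 27 of 91 in FA_IP than in FA_IN, where 0.586% were. It called 1 of 92 lower in FA_IN than in CA_IN, where 0.205% were, and 0 of 92 in FA_IP against CA_IP, where 0.207% were, with 1 at an unadjusted p under 0.05. The 1 is a transcript of H2AC6, whose gene sum is given above.

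The other genes of the pathway were tested for the same comparisons. The 11 replication-independent histone variants tested are also made outside S phase. Of these, 0 were called in either pull-down comparison by edgeR or by DESeq2 on 8 libraries. In edgeR 3 and 2 of the 11 had an unadjusted p under 0.05, and the medians were 0.09 and 0.13. H2AX, an H2A variant that also holds the stem-loop, was at -0.07 ± 0.16 in clean air and -0.09 ± 0.16 in formaldehyde. Of 22 histone mRNA processing genes, 2 were lower in both treatments by both tools, the Sm protein genes SNRPG (log2 -1.501 ± 0.09, adjusted p 4.639e-05, and -1.32 ± 0.09, 0.000133) and SNRPE (-0.58 ± 0.10, 0.0167, and -0.50 ± 0.10, 0.0475). SLBP was at 0.06 ± 0.18 and 0.03 ± 0.18. The list's medians were 0.01 and -0.0003. Of 22 histone chaperones, 0 were called by either tool in both treatments (4 and 2 at an unadjusted p under 0.05 in edgeR, medians 0.08 and 0.05), led by IPO4, an importin for histones (0.38 ± 0.10, adjusted p 0.141). Of 24 S phase genes, MCM2, a subunit of the replicative helicase, was higher in CA_IP (0.39 ± 0.08, 0.0482), with 0 called in formaldehyde by edgeR or DESeq2 (4 at an unadjusted p under 0.05 in edgeR). DESeq2 called 2 in clean air. The medians were 0.14 and 0.09. Between formaldehyde and clean air 0 genes of these lists were called in either fraction or in the interaction, by edgeR or DESeq2, with at most 2 of a list at an unadjusted p under 0.05 in edgeR.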

How the data were processed

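The authors trimmed the 75-base reads with Cutadapt, aligned them with STAR 2.6.0a to Ensembl release 94 (GRCh38) and estimated counts with RSEM 1.2.25. The deposited values are expected counts, effective lengths and TPM per transcript. The 3 deposited tables of DESeq2 comparisons (log2 fold changes and p-values), 2 of them identical, were not used. Expected counts were summed by gene, rounded and tested with edgeR 4.0.16 (TMM, quasi-likelihood F test, 4 groups, 8 libraries, no block, at least 5 counts in 2 libraries, prior count 0.125) in R 4.3.3, with Benjamini-Hochberg adjustment over all genes and a limit of 0.05. CPM used TMM-scaled library sizes. DESeq2 1.42.0 was an alternative. The test without a block was run on simulated counts drawn without a shared RNA pool, so that check does not cover the pairing of input with pull-down. Pool ratios used 0.1 CPM as pseudocount. Stem-loops, windows and coding sequences came from GENCODE 44 on GRCh38.

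Input and pull-down of 1 pool pair by design. Over genes with a mean above 5 CPM, their replicate 1 minus replicate 3 deviations correlated at 0.777 (clean air) and 0.648 (formaldehyde). In the other pairs of groups these correlated at 0.450 to 0.588. Replicate numbers come from the deposited file names. Named, most of them with values, are the 24 members of highest mean CPM, called members (at most 10 per comparison) and H2AC6. Up to 4 genes of each pathway list (variants, mRNA processing, chaperones, S phase) are named too. H1-1, H1-3, H3C6, H2AC7, H3C4, H4C1, H4C9, H2AX, SLBP and the members lacking a stem-loop were named after their values were seen. The members, lists and tests were chosen with earlier results of these data known. Replicates were separately exposed cultures per the study's methods.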

Additional observations from a re-analysis of the deposited data

How the results depend on the processing

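The direction of the pull-down comparison held for the members as a group under every setting run, while the number called moved. Members called lower, 18 in clean air and 15 in formaldehyde, came to 51 and 50 without a filter, 49 and 49 with a replicate block by number, 54 and 53 with a replicate block by RNA pool, 42 and 39 with DESeq2 on 8 libraries, and 49 and 49 with effective lengths and the pool block. Of all genes, 1.51% and 1.44% were lower without a filter, 3.2% and 2.65% with the block by number, and 1.89% and 1.71% with DESeq2. In clean air the members called lower came to 47 with DESeq2 and 39 with edgeR on 4 libraries, where 1.71% and 1.3% of all genes were. With the pool block 1 member was called higher in clean air. Leaving out 1 library gave 4 to 26 in clean air and 2 to 25 in formaldehyde. Between FA_IP and CA_IP the fit without a filter called 1 member lower (H3C14) and 2 higher (H4C3 and H3C15), and leaving out 1 library gave 0 to 1 higher there and in the interaction, the 1 being H3C15 without replicate 1 of CA_IP. Member transcripts called lower by DESeq2 without a filter on 4 libraries came to 46 in clean air, 27 in formaldehyde and 1 between FA_IN and CA_IN. For each of these counts the cause was not tested. Among named members, H1-2 reversed to 0.0143 in clean air with library size alone. Leaving out 1 library moved H1-2 between -0.3675 and 0.115 in clean air and between -0.5465 and 0.224 in formaldehyde, and H1-5 between -0.256 and 0.5469 in formaldehyde. Library size alone, RLE factors, a filter of 10 counts, a prior count of 2, near-identical pairs summed and effective lengths as offsets left the counts of lower members within 1.5 times. The pairs and the effective lengths were added after seeing the data, as was their combination with the pool block.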
